A study of Homo sapiens with 12 samples.

Results

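The regions described here carried an H3K4me2 peak in U-937 cells given vehicle and in cells given Corin, and no peak in either condition that included all-trans retinoic acid (ATRA). They number 539 of 84577 regions, 0.637% of all regions and 1.18% of the 45779 regions that held both a DMSO and a Corin peak. Each region is a set of overlapping or touching peaks merged over 4 deposited peak lists, 1 list per treatment. The list names describe optimal peaks of a reproducibility overlap, so a called peak may have been left out of a list. Members were selected on the presence of a listed DMSO and Corin peak and the absence of a listed ATRA and ATRA+Corin peak. U-937 is an established human line of monocytic character. The cells were treated for 24 h with DMSO, with 0.1 µM ATRA, with 0.1 µM Corin, or with 0.1 µM of each drug together. Each treatment had 2 H3K4me2 chromatin immunoprecipitation libraries and 1 input library, 12 in all, read in pairs of 75 bp. The labels do not say whether the libraries of a treatment came from separate cultures, and each list is a pooled call, so no value below has a replicate error and no test across treatments was possible.

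Dimethylation of lysine 4 on histone H3 marks promoters and enhancers, including enhancers that are primed but not fully active. LSD1 (KDM1A) removes mono- and dimethyl groups from this lysine and works in the CoREST complex beside the histone deacetylases HDAC1 and HDAC2. Corin is a dual inhibitor directed at the LSD1 and deacetylase activities of that complex. ATRA binds retinoic acid receptors, which pair with RXR on repeated half-sites in DNA and switch on myeloid differentiation genes in leukaemic cells. Retinoic acid receptors are also known to interfere with AP-1, the family of FOS and JUN dimers. These bind TGACTCA and TGAGTCA sites in enhancers of activated and differentiating myeloid cells.

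The number of regions with a peak was 50651 in DMSO, 55980 in ATRA, 60428 in Corin and 74264 in the combination. Members made up 1.06% of the DMSO regions and 0.892% of the Corin regions. In the DMSO list, all 10 monocytic line markers checked (such as SPI1, CD33 and LYZ) had a peak within 1 kb of a start site, and so did 3 of 10 markers of other cell types. A peak reports the mark averaged over many cells, so fewer cells carrying the mark and less mark per cell cannot be told apart.

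The sequences at the strongest members are shown first, because they are the DNA on which the peaks rest. Members were ranked by the lower of their DMSO and Corin −log10 q. Those ranked 1, 3, 5, 6 and 7 are given as 160 bases at the DMSO summit, on the plus strand of GRCh38, and capitals mark letters that matched any of the 20 motifs listed further on.
TPSAB1 chr16:1241168-1241327: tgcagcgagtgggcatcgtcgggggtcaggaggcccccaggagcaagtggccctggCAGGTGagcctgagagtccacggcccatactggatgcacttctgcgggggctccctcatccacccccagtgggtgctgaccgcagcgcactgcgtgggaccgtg
NPTX2 chr7:98621913-98622072: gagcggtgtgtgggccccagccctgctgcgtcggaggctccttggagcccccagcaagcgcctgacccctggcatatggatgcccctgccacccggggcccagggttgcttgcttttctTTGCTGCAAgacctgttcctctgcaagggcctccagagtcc
lncRNA near MYEOV chr11:69367396-69367555: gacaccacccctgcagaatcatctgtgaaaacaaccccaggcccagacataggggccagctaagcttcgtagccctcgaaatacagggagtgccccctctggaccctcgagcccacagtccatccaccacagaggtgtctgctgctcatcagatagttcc
RAET1K chr6:150003673-150003832: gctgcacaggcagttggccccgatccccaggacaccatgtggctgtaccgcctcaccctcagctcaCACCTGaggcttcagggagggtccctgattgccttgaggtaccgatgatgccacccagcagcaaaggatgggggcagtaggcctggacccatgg
EMP2 chr16:10600743-10600902: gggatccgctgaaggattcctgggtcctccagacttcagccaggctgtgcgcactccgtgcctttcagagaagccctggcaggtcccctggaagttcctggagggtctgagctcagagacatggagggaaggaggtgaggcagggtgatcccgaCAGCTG
The window of the lncRNA near MYEOV held none of the 20 motifs. The TPSAB1 window had 9 CpG and a GC content of 68.8%, and the lncRNA window had 3 CpG and a GC content of 57.5%. The TPSAB1 and RAET1K windows held the CAGGTG E-box on one strand or the other, and the NPTX2 window held C/EBP letters.

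A second set shows the AP-1 sites described below. It gives 100 bases around the site in 6 of the strongest members whose 300 bp window held TGANTCA, with the site in capitals. This set was chosen after the motif counts were known.
TPSAB1, second region chr16:1242192-1242291: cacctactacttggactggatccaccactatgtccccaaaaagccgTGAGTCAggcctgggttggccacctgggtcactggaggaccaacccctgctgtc
SHANK2 chr11:70577164-70577263: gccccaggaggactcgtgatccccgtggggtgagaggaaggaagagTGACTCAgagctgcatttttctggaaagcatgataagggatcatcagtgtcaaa
upstream of PDGFA chr7:543337-543436: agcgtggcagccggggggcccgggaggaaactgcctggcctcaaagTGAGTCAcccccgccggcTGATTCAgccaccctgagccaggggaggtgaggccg
LINC02405 chr12:126936692-126936791: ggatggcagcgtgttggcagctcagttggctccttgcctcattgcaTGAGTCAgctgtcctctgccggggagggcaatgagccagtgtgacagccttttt
RIPK4 chr21:41752250-41752349: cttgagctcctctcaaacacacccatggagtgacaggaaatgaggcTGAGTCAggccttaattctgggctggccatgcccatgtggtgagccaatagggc
SULF2 chr20:47724591-47724690: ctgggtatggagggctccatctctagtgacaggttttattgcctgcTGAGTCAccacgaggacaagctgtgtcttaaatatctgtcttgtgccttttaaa
The site lay 1 base from the DMSO summit in the second TPSAB1 region and 117 to 137 bases from it in the others. The window upstream of PDGFA, which encodes a platelet-derived growth factor chain, held 2 sites, TGAGTCA and TGATTCA. SHANK2 encodes a postsynaptic scaffold protein, RIPK4 a kinase of epidermal differentiation and SULF2 an extracellular sulfatase that trims heparan sulfate.

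Members were short and of low signal, as were the sets most like them. Their widths ran from 172 to 1682 bp with a median of 480 bp, compared with 904 bp over all regions, and together they covered 286.7 kb. Most held a single peak per list, 522 for DMSO and 534 for Corin, and the DMSO and Corin summits lay a median of 61 bp apart. The −log10 q, the authors' false discovery value for a peak, had a median of 3.27 in DMSO (0.397 to 30.5) and 3.92 in Corin (0.541 to 23.6). Median enrichment over input was 3.79-fold in DMSO and 3.75-fold in Corin. Over all DMSO regions the median −log10 q was 17.9, so a typical member was far weaker than a typical region of the same list. The comparison includes regions held by all 4 lists, of median width 1818 bp, which the rule leaves out. These contrasts with all regions therefore come with the selection and are not a separate result. Regions held by DMSO and ATRA only, by DMSO and the combination only and by DMSO alone had median widths of 433, 415 and 254 bp and median DMSO −log10 q of 3.73, 3.01 and 2.85.

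A stricter limit, −log10 q of 5 or more, was passed by 156 members in DMSO (28.9%), by 175 in Corin (32.5%) and by 61 in both (11.3%). Of all DMSO regions, 79.99% passed it. Across the 539 members Spearman's rho between DMSO and Corin −log10 q was 0.15, and DMSO was the higher of the pair in 231. Both values come from peaks that passed the same kind of threshold, which narrows their range.

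The depth behind a member peak can be read from the deposited values. The fragment number at the summit, recovered from the fold and the −log10 p, had a median of 19 in DMSO (11 to 60) and 20 in Corin (11 to 53), with 2 DMSO and 3 Corin peaks not solved. Among the weakest 5% of peaks sampled from each list, the median was 16 fragments in DMSO, 17 in ATRA, 17 in Corin and 19 in the combination. A member at the median is therefore supported by few more fragments than the weakest peaks of any list. Whether some members lie just under the threshold in the ATRA lists, or were left out at the reproducibility overlap, was not tested. The lists give no value where no peak was listed.

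At the edge of the rule, the weakest member peak had a −log10 p of 2.02 in DMSO and 2.05 in Corin. The weakest peaks that kept a region out of the set were alike: 2.05 in ATRA and 2.05 in the combination. Regions that held DMSO, Corin and ATRA peaks and no combination peak numbered 371, with a median ATRA −log10 q of 5.65, and 53.9% of those ATRA peaks reached 5. Regions that held DMSO, Corin and combination peaks and no ATRA peak numbered 1605, with a median combination −log10 q of 6.72, and 64.4% reached 5.

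**Figure D1:**
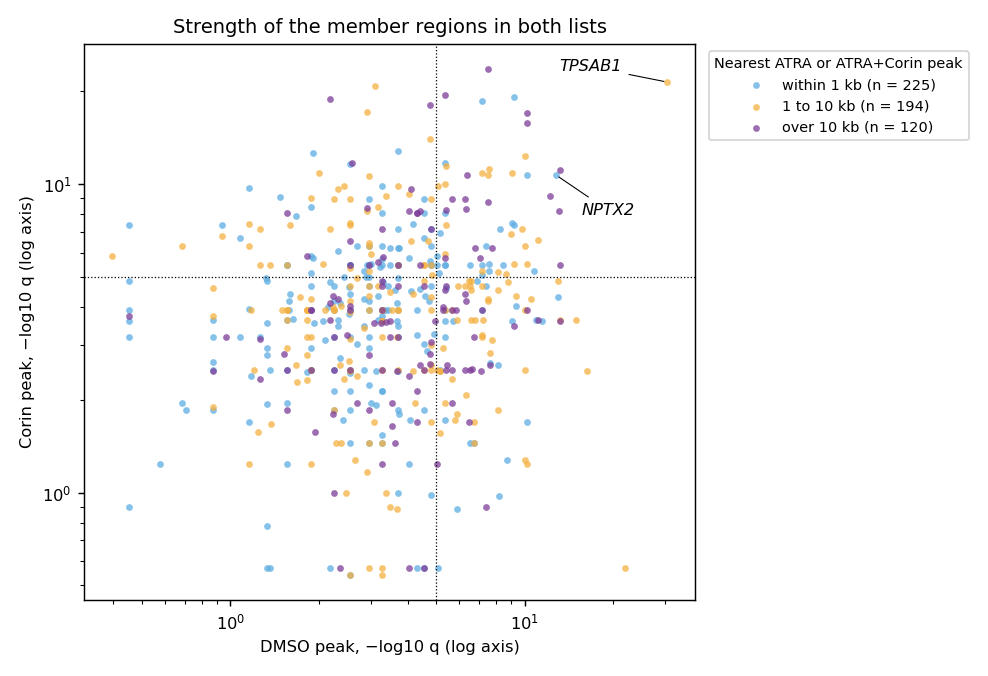
Each point is 1 of the 539 member regions, placed by the −log10 q of its DMSO peak (x) and of its Corin peak (y), both on log axes, and coloured by the distance to the nearest ATRA or ATRA+Corin peak. The dotted lines mark a −log10 q of 5, which 61 members reach in both lists, and the TPSAB1 region stands at the upper right with 30.5 and 21.4.

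The mirror pattern gives a scale for these counts. Regions with a DMSO and an ATRA peak and none in either Corin list numbered 763, 1.66% of the 46057 regions with both of the first peaks, and are called the mirror set below. Regions with a DMSO and a combination peak and neither single drug numbered 586, 1.24% of 47114. Absence from a single list, whatever the other lists held, is a wider count that includes the members. By that count 9.07% of DMSO regions had no ATRA peak, and 8.66% of Corin regions had no combination peak. All these counts but the last share the DMSO list.

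Members were measured against the nearest ATRA and combination peaks, whether or not the region of that peak also held a DMSO peak. The nearest ATRA peak was a median of 3408 bp away and the nearest combination peak 1850 bp. An ATRA or combination peak lay within 1 kb of 225 members (41.7%, 95% Wilson interval 37.7 to 45.95), and peaks of both lists lay within 1 kb of 141. At the other end, 120 members (22.3%, 18.95 to 25.96) had neither within 10 kb and 25 had neither within 50 kb. These distances were not measured for other sets of regions, so whether the shares are high or low for such regions was not tested. Intervals here and below cover counting error only, and regions are not replicates.

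A combination peak without an ATRA peak lay within 1 kb of 70 members, and the reverse held for 14. The combination list is also the longest, with 83969 peaks against 66385 for ATRA, and its part in this count was not tested. By distance from the nearest ATRA or combination peak, the median DMSO −log10 q was 3.13 within 1 kb, 3.32 at 1 to 10 kb and 4.203 beyond 10 kb. The median Corin −log10 q did not rise in the same way, at 3.92, 3.92 and 3.82.

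**Figure D2:**
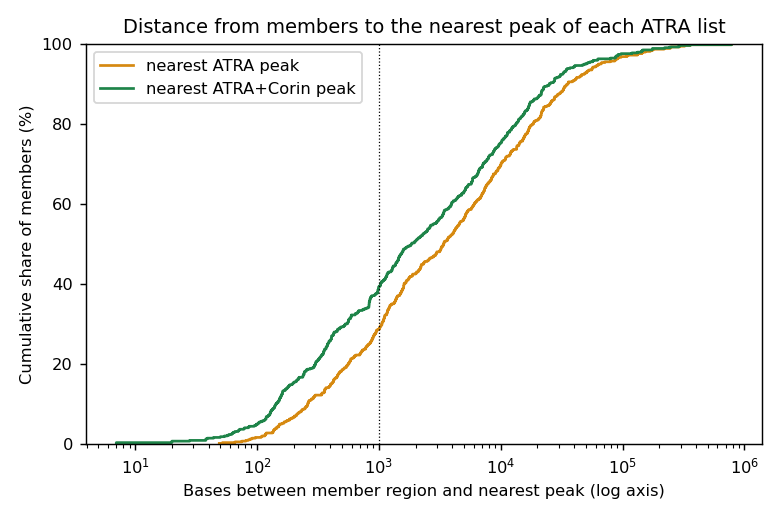
The curves give the cumulative share of the 539 members (y, %) against the bases between a member and the nearest peak (x, log axis), for ATRA and for ATRA+Corin peaks. The dotted line marks 1 kb, within which lay an ATRA peak for 28.8% of members and an ATRA+Corin peak for 39.1%.

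Close neighbours of any kind were common. The next region lay within 1 kb for 288 members (53.4%, 49.2 to 57.6), compared with 42.3% (38.9 to 45.9) of the DMSO and ATRA mirror set and 43.9% of all DMSO regions. Regions held by DMSO alone were at 48.1% (45.8 to 50.3), which overlaps the members. For 291 members (54.0%) the next region was held by all 4 lists. That share was 49.1% in the mirror set and 53.2% over all DMSO regions.

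Members lay mostly in gene bodies and seldom at promoters. A transcription start site was within 1 kb of 30 members (5.57%, 3.93 to 7.83), 351 lay elsewhere in a gene (65.1%, 61.0 to 69.0) and 158 lay outside genes (29.3%, 25.6 to 33.3). Gene bodies held 59.9% of the mirror set, 64.97% of regions held by DMSO alone and 43.03% of all DMSO regions, so the gene-body share is not particular to members. The start-site share was 11.4% (9.34 to 13.9) in the mirror set, 8.19% (6.23 to 10.7) among regions of DMSO and the combination only, 8.75% (7.55 to 10.1) among regions held by DMSO alone and 33.6% over all DMSO regions. The interval of the members does not overlap that of the mirror set and overlaps the other 2. All 4 lists were also cut to a −log10 q of at least 5 before merging, which gave 276 regions of the member pattern. Only 61 of the 539 members reach that limit in both lists, so most of the 276 are other regions. The start-site share was 9.78% in the 276 and 4.92% in the 61. The first of these lies within the interval of the mirror set given here, which is that of the uncut lists. A start site lay inside only 6 members (1.11%) and inside 29 regions of the mirror set (3.80%). The median member was 13051 bp from the nearest start.

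CpG content followed the same order. At least 10 CpG in the 300 bp at the DMSO summit were found in 57 members (10.6%, 8.25 to 13.5), in 20.1% (17.4 to 23.04) of the mirror set, in 11.6% (9.26 to 14.4) of regions of DMSO and the combination only and in 31.4% of all DMSO regions. Median GC content was 51.3% in members and 53.0% in the mirror set and over all DMSO regions. The GC box of SP1, GGGCGG, which is common in CpG-rich promoters, occurred in 10.0% of members, 17.3% of the mirror set and 22.4% of all DMSO windows.

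**Figure D3:**
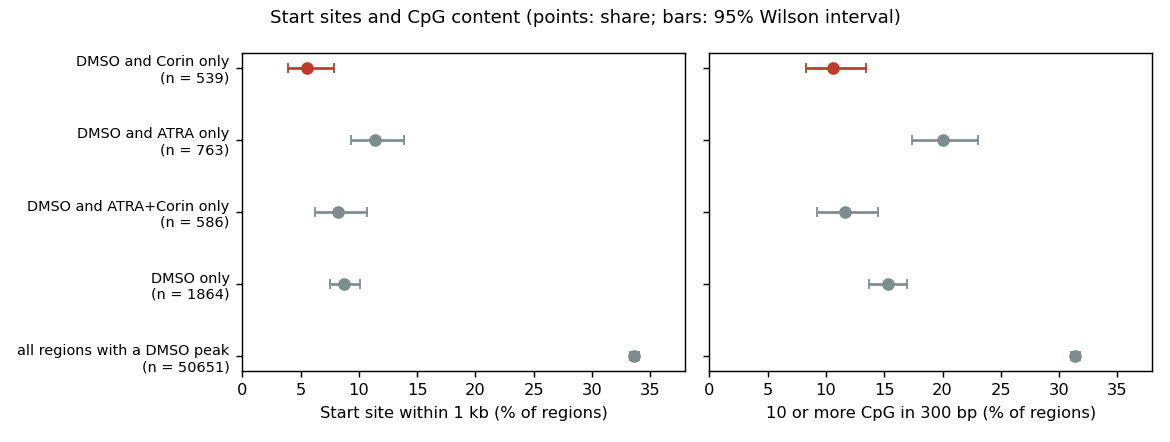
Points give the share of regions (x, %) with a start site within 1 kb (left) and with at least 10 CpG in 300 bp at the DMSO summit (right) for 5 sets of regions, and bars give 95% Wilson intervals. Members, in red, sit at 5.57% and 10.6%, below the DMSO and ATRA only set at 11.4% and 20.1%.

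AP-1 letters were found in a larger share of member windows than of the mirror set or of all DMSO windows, and in a similar share of the regions that also held a combination peak. TGANTCA, searched on both strands, occurred in 88 members (16.3%, 13.5 to 19.7), in 63 regions of the mirror set (8.26%, 6.51 to 10.4) and in 8.84% (8.60 to 9.09) of all DMSO windows. Regions held by DMSO and the combination only were between, at 11.8% (9.41 to 14.6), and their interval overlaps that of the members. Regions held by DMSO, Corin and the combination, with no ATRA peak, were at 15.6% (13.9 to 17.4), so the share is not particular to members. AP-1 was singled out after all 20 motifs had been counted. No test was made, and a match is a run of letters, not a bound site. The N stood for any base, so TGAATCA and TGATTCA were counted together with TGACTCA and TGAGTCA.

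The AP-1 share was then compared within ranges of base composition. In windows of 45 to 55% GC, the share was 13.9% in members, 9.46% in the mirror set, 13.2% in regions of DMSO and the combination only and 10.6% over all DMSO windows, and these intervals overlap. Below 45% GC the same sets were at 15.4% (9.70 to 23.5), 8.60% (4.42 to 16.1), 11.3% and 11.97%, and the intervals overlap. Above 55% GC they were at 20.5% (15.16 to 27.01), 6.67% (4.36 to 10.1), 9.40% (5.68 to 15.15) and 5.70%. Away from start sites, with none within 1 kb, they were at 16.3%, 8.43%, 11.5% and 10.8%. Most members are weak, so windows with a DMSO −log10 q under 5 were also compared. There the sets were at 16.45% (13.07 to 20.49), 7.92% (5.87 to 10.6), 11.6% (9.005 to 14.8) and 11.47% (10.86 to 12.1). Members with and without the letters had the same strength, with median DMSO −log10 q of 3.31 and 3.27 and median Corin −log10 q of 3.96 and 3.92.

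The letters lay to the sides of the summit more than under it. Per 100 member windows there were 7.61 and 9.28 sites in the bins 100 to 200 bp before and after the summit, and 5.38 and 4.82 in the bins within 100 bp. All DMSO regions had the same shape at a lower level, with 4.57 and 4.55 to the sides and 2.76 and 2.72 at the centre. In the mirror set the bins ranged from 2.23 to 4.06. Of the 88 members with the letters, 58 lay in gene bodies, 25 outside genes and 5 near a start site, and 9 held more than 1 site.

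AP-1 letters were also counted by distance from the nearest ATRA or combination peak. The letters were in 27 of 225 members (interval 8.38 to 16.9%) where an ATRA or combination peak lay within 1 kb, in 38 of 194 (14.6 to 25.7%) at 1 to 10 kb and in 23 of 120 (13.1 to 27.1%) beyond 10 kb. These intervals overlap.

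The same search over every presence pattern, at the strongest summit of any list, placed members among the patterns that hold Corin and lack ATRA alone. The 4 highest shares belonged to those patterns: 16.1% for DMSO, Corin and the combination, 14.7% for members, 13.6% for Corin alone and 13.4% for Corin and the combination. The lowest shares were 6.86% for ATRA alone and 7.86% for DMSO and ATRA. Intervals of neighbouring patterns overlap, and median GC content ranged from 45.7% to 53.0% over the patterns.

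**Figure D4:**
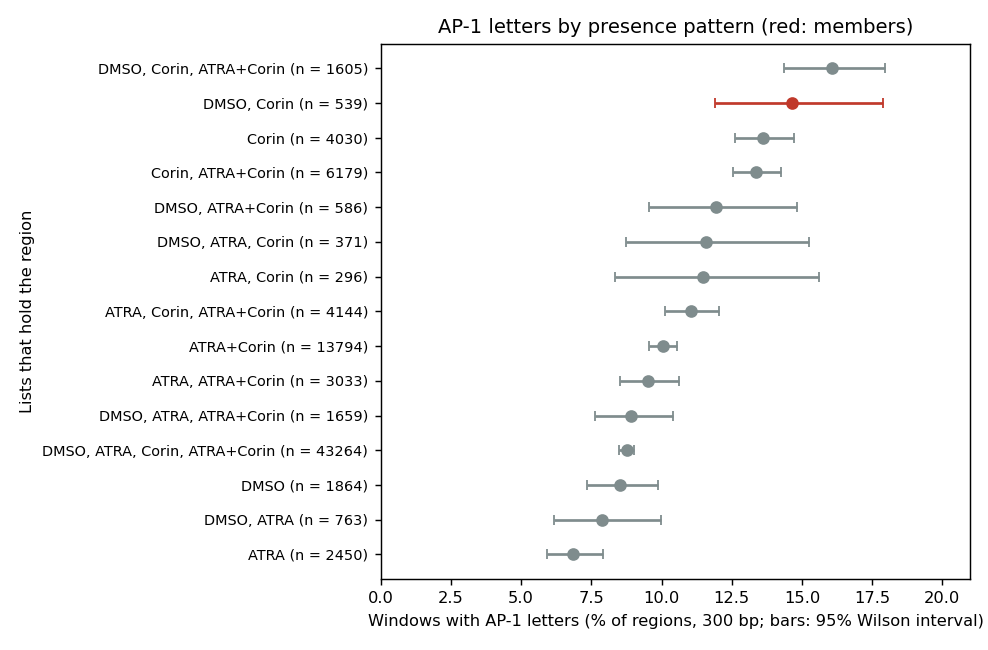
Points give the share of regions (x, %) with TGANTCA in 300 bp at the strongest summit, for each of 15 combinations of lists that hold a region (y), with 95% Wilson intervals as bars. Members, in red at 14.7%, stand second among the patterns, and DMSO with ATRA stands at 7.86%.

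Motifs of blood transcription factors with a higher share in members than over all DMSO windows were RUNX (TGTGGTT, 8.72% and 5.85%), the letters AGATAA of GATA factors (13.4% and 9.89%) and TAACNG of MYB (25.2% and 20.4%). Regions of DMSO and the combination only were close to members for all 3, at 7.85%, 12.1% and 24.1%, with overlapping intervals. The mirror set was at 6.82%, 9.96% and 22.7%, and its intervals also overlap those of the members. These letters were not compared within ranges of GC content. PU.1 (GAGGAAGT) is the product of SPI1 and a leading factor of monocytic enhancers. Its letters were at 2.60% (1.55 to 4.31) in members, 4.33% (3.10 to 6.01) in the mirror set and 3.15% over all. C/EBP (TTGCNNCAA) was at 3.34% (2.12 to 5.22) in members and 2.36% over all, and NF-kB at 2.60% (1.55 to 4.31) and 1.76%. At the Corin summit NF-kB letters were in 1.67% of members, below the share over all DMSO windows. IRF was at 1.86% in members and 3.68% over all, and MEF2 at 2.04% and 3.07%.

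Retinoic acid receptor half-site repeats were searched with GGTCA exact in both half-sites and the base before it free. Half-sites that depart from GGTCA were not counted. The direct repeats DR5, DR2 and DR1 of GGTCA half-sites each occurred in 0 of 539 member windows, with an upper Wilson limit of 0.708%. Over all DMSO windows they occurred in 0.0849%, 0.113% and 0.142%, all below that limit. At shares this low, a count of 0 in 539 windows does not set members apart. The remaining letters, in members and in all DMSO windows, were the E-boxes CAGCTG (22.6% and 20.04%), CAGGTG (30.98% and 29.5%) and CACGTG (5.94% and 4.89%), the GFI1 core AAATCA (14.1% and 13.3%), the CTCF core (1.11% and 1.02%), ETS (CCGGAAGT, 0.186% and 0.474%) and HOX-MEIS (TGATTNAT, 3.53% and 2.37%). The ETS and PU.1 letters share GGAAGT.

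The strongest member lay in TPSAB1, which encodes the mast cell protease tryptase. The region chr16:1241105-1241349 overlapped an exon 381 bp from a start site. Its −log10 q was 30.5 in DMSO and 21.4 in Corin, with 12.5-fold and 9.87-fold enrichment. Its summits held 60 fragments in DMSO (exact 95% Poisson interval 45.8 to 77.2) and 45 in Corin (32.8 to 60.2). The second TPSAB1 member, chr16:1242151-1242576, also overlapped an exon and had −log10 q of 9.05 and 10.8. These are the only regions in the gene body, so TPSAB1 had 2 regions in DMSO, 2 in Corin, 0 in ATRA and 0 in the combination.

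Just downstream, all 4 lists held a strong peak, with −log10 q of 113 in DMSO, 104.7 in ATRA, 82.8 in Corin and 97.4 in the combination. The ATRA and combination peaks began 1577 and 1415 bp from the second member. Tryptase genes are near-identical copies: 75.1% of 64-base words in the first member and 43.0% in the second occur once in the genome, so reads of a paralog could be placed there, and both values are uncertain for that reason.

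NPTX2, which encodes a secreted neuronal pentraxin, held the strongest member inside a gene body whose 64-base words are all unique. The region chr7:98621769-98622543 is intronic, 4484 bp from the start site. It had −log10 q of 12.7 in DMSO and 10.7 in Corin, 6.20-fold and 5.35-fold enrichment, and 41 and 39 fragments. Peaks held by all 4 lists flanked it, and the ATRA and combination peaks came within 946 and 871 bp. The flanking peak on the start-site side had −log10 q of 152 in DMSO, 244 in ATRA, 131 in Corin and 147 in the combination.

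The other 9 of the 12 strongest members were at varied positions. MAD1L1, which encodes a mitotic spindle checkpoint protein, held an intronic member at chr7:2214282-2215340 with −log10 q of 10.2 in DMSO and 15.8 in Corin, 15947 bp from the nearest ATRA peak. A lncRNA region near MYEOV, chr11:69367181-69367737, had 10.2 and 17.0. Members lay 19856 bp from the start of EMP2, a tetraspan membrane protein gene, and 3552 bp from that of PLEKHM2, which encodes a lysosome-positioning adaptor, with Corin values of 12.4 and 19.2. The PLEKHM2-adjacent member lay 7 bp from a combination peak. Only 40.1% of its 32-base words occur once in the genome, and 63.2% of those of the MAD1L1 member. Of the 64-base words, 100% occur once in both members. RAET1K, annotated as a lncRNA, held a member of −log10 q 10.2 and 10.7 that lay 145 bp from an ATRA peak. The rest lay near GEM, ZNF684, TMEM242 and CST3, at 41277, 61840, 78436 and 23188 bp from the coding starts. The 12 thus include stand-alone regions and regions close to an ATRA or combination peak.

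Over a protein-coding start site there were 2 members. SMAD3, which encodes a signal transducer of TGF-beta, had one at an alternative start, chr15:67125690-67126009, with −log10 q of 4.75 in DMSO and 5.63 in Corin and an ATRA peak 88 bp away. CDK11B, a cyclin-dependent kinase gene with a near-identical neighbour CDK11A, had the other at chr1:1658821-1659269, with 4.82 and 4.69 and an ATRA peak 153 bp away. The region next to the CDK11B member was held by all 4 lists, and that next to the SMAD3 member by every list but DMSO.

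Members were spread over many genes. The bodies of 299 protein-coding genes held 297 members (55.1%): 279 genes held 1, 19 held 2 and 1 held 3. The gene with 3 was URI1, which encodes a prefoldin-like chaperone subunit. Its members had DMSO −log10 q of 1.32, 1.88 and 7.52 and Corin −log10 q of 4.95, 2.49 and 4.23. URI1 had 5 regions in DMSO, 2 in ATRA, 10 in Corin and 4 in the combination, and its start-site peak was held by all 4 lists. Pairs lay in SHANK2, in SMYD3, which encodes a lysine methyltransferase, and in DDB1, a DNA damage-binding protein gene that overlaps TKFC. Grouping members up to 50 kb apart gave 22 clusters with 45 members (8.35%).

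**Figure D5:**
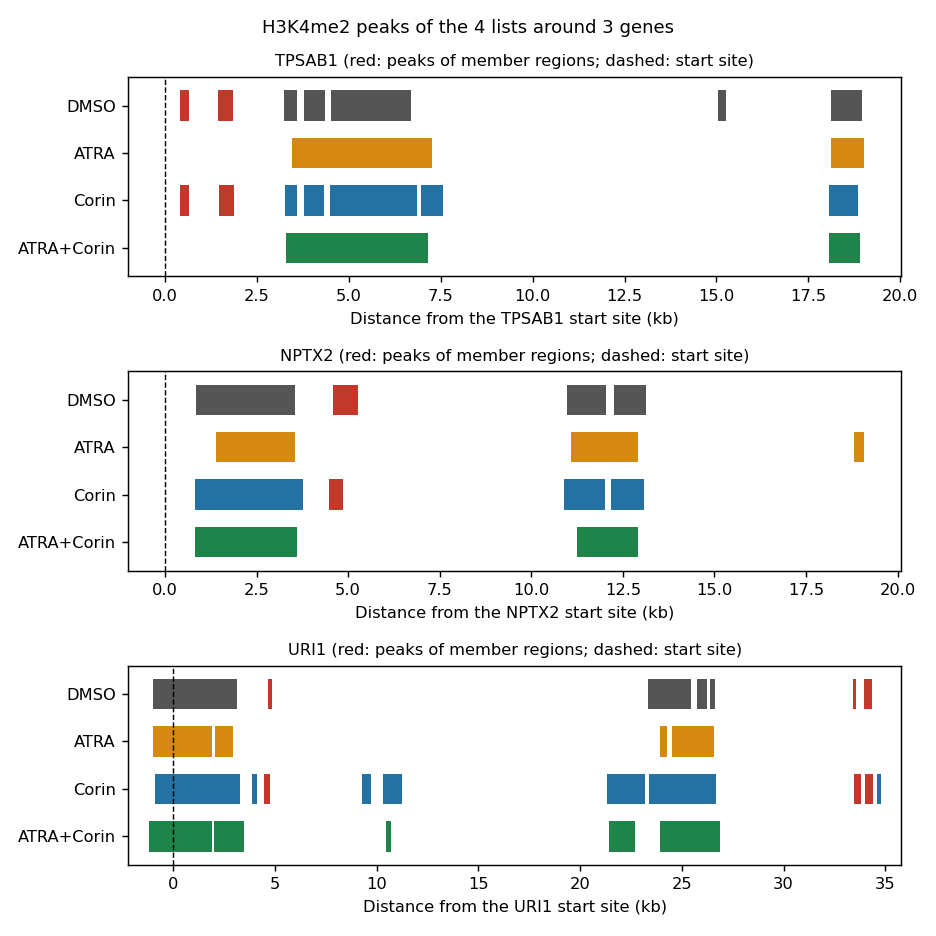
Bars show the H3K4me2 peaks of the 4 lists (rows) against distance from the start site (x, kb) at TPSAB1, NPTX2 and URI1, and red bars are peaks of member regions. At TPSAB1 and NPTX2 the ATRA and ATRA+Corin rows hold no bar where the red ones stand, and bars of all 4 lists lie on at least 1 side.

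Gene lists were compared with the background of 643 of 19951 protein-coding genes (3.22%) that had a member within 50 kb of their start. Of the retinoid response genes 0 of 16 had one, of the myeloid differentiation genes 0 of 22, of the stem and progenitor genes 0 of 14, of the cell cycle genes 0 of 15 and of the erythroid and megakaryocyte genes 0 of 13. At 3.22% a list of 13 to 22 genes holds fewer than 1 on average, so a count of 0 does not set a list apart. Over all members, every 64-base word was unique in 468 (86.8%), compared with 85.5% of the mirror set.

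Granule and mast cell proteins had 5 of 10, but these rest on 3 members at 2 loci. TPSAB1 and its neighbour TPSB2 share the pair described above. ELANE, PRTN3 and AZU1, the neutrophil elastase, proteinase and azurocidin genes, share chr19:855214-856111 in ELANE, which had −log10 q of 4.07 in DMSO and 1.71 in Corin and lay 557 bp from an ATRA peak. The CoREST and p300 list had 1 of 12, RCOR2, a CoREST subunit gene, 34518 bp from a member in MARK2 with 0.452 and 3.19.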

How the data were processed

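H3K4me2 was measured in U-937 cells under 4 treatments, and the authors deposited 1 narrowPeak list per treatment from its pooled H3K4me2 libraries against input. The list names describe optimal peaks of a reproducibility overlap, and how that overlap was applied is not known here. Trimmomatic, Bowtie2, Picard, MACS2 and the hg38 build are named in the submitters' processing notes, without versions, settings or roles. Each deposited peak has a score, which equals 10 times the −log10 p as a whole number with a cap of 1000, a fold enrichment over input (a ratio), −log10 p, −log10 q and the offset of its summit. In these deposited lists the lowest −log10 p was 2.02. The fold and −log10 values were the authors' and were used only to describe, rank and filter peaks within a list.

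Peaks that overlapped or touched were merged, and no peak ended past a chromosome of GRCh38. Positions were annotated with GENCODE release 44 (38726 protein-coding and lncRNA genes), with gene windows from canonical starts. Fragment numbers at summits were solved from the fold, taken as (fragments × scaling + 1)/(background + 1), and the Poisson tail that gave the deposited −log10 p, accepting solutions within 0.01 of a whole number. This was tested on simulated data. Motifs were searched as exact letters on both strands of 300 bp windows centred on the DMSO summit, and 64-base words were counted over the genome. Shares have 95% Wilson intervals, with no test, since each treatment has 1 list. Repeat annotation was not analysed here. Some items are not reported here. Computation used Python 3.11.15, numpy 2.4.6, pandas 2.3.3, scipy 1.17.1 and matplotlib 3.10.9.

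The members, gene lists and motifs were chosen with earlier results of these data known. Named members are the 12 with the highest lower −log10 q, those over a coding start, those within 50 kb of a listed gene, and the genes whose bodies hold the most members. Alternatives covered peak strength, merging, list length, overlap, windows and summit. Those on AP-1, on distance from ATRA peaks and on unique words were added after the data were seen.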

Additional observations from a re-analysis of the deposited data

How the results depend on the processing

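No paired analysis was possible because each treatment has 1 pooled peak list, and for the same reason no library could be left out. The number of regions moved with the setting: 276 with a −log10 q of at least 5 in all 4 lists, 61 with that limit on the DMSO and Corin peaks only, 316 with peaks within 1 kb merged, 992 as single DMSO peaks under a 50% overlap, and 314 more than 1 kb from an ATRA or combination peak. The causes were not tested beyond the construction of each setting. With −log10 q of at least 5 in all lists, the start-site share was 9.78% and the gene-body share 60.9%. With the limit on DMSO and Corin only, 60.7% lay in gene bodies and 34.4% outside genes. A start-site window of 2.5 kb gave 14.5% and 57.5% for start sites and gene bodies. With a gene window of 10 kb, 2 granule and mast cell genes and 167 protein-coding genes had a member, and 100 kb gave 1220. The other 29 of 43 alternative values stayed within the interval of the reported value or within 1.5 times its count. AP-1 shares in members ranged from 13.5% at the Corin summit to 19.4% away from ATRA peaks. The limit of 5 in all lists, merging within 1 kb and equal list lengths each remade the sets from the peaks. Regions of the member pattern were then at 14.5%, 19.3% and 13.8%. The DMSO and ATRA only set was at 7.53%, 7.41% and 9.08%, and regions of DMSO, Corin and the combination at 17.6%, 16.6% and 16.6%. Few fragments stand behind each member. Absence from a list means that no peak was called or that a called peak was left out at the reproducibility overlap, not that the mark was absent.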

Other observations

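Members near coding start sites that the naming rule did not reach, chosen after their values were seen, included PTGER1, which encodes a prostaglandin E receptor, with a −log10 q of 13.0 in DMSO and 4.87 in Corin and no ATRA peak closer than 3642 bp. FBXO8, an F-box protein gene, had one 38 bp from its start with 3.69 and 3.602 and an ATRA peak 75 bp away. Per 1000 DMSO regions, members ranged from 5.94 on chromosome 4 (95% Wilson interval 3.23 to 10.9) to 15.6 on chromosome 9 (11.1 to 21.8), the extremes of 23 chromosomes.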
